A study of Mus musculus with 4 samples.

Results

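The interferon-inducible GTPases described here are 8 mouse genes, Gbp2, Gbp3, Gbp6, Irgm1, Irgm2, Igtp, Iigp1 and Gvin1, out of 31896 genes or unnamed transcripts on the arrays. They were selected on their difference between the groups compared below, together with their known family membership, so that difference is given for them as a description and was not tested. Every non-control probe carrying one of these names was taken. This gave 12 probes on 21 spots, and the probe with the highest mean over the arrays stands for its gene. Of these 12 probes, 11 were marked well above background by the scanner software on 2 or more arrays, 10 on all 4, and none had a saturated spot.

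The study hybridized RNA of breast cancer cells grown from tumors of mice carrying the MMTV-Neu transgene, whose viral promoter directs the oncogene Neu (Her2) to mammary epithelium, to 1-colour whole genome arrays. There were 2 samples of Pak1-/- cells, from Pak1 knockout mice carrying the transgene, and 2 samples of Pak1+/+ cells, from mice with the transgene alone. All 4 samples were kept in low-calcium medium with horse serum, starved of serum for 3 h and then given EGF for 15 min, so no unstimulated culture and no interferon-treated culture enters any comparison here. The labels do not say whether samples #1 and #2 came from separate tumors or cultures, and the p-values then measure only the spread between these samples.

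Pak1 encodes a kinase downstream of the small GTPases Rac and Cdc42. The array held 1 Pak1 probe, which stood at 12.21 and 12.25 (normalized log2 intensity) in the samples labelled Pak1-/- and at 12.04 and 12.04 in those labelled Pak1+/+, a log2 difference of 0.19 with an adjusted p of 0.07 in limma. The probe therefore showed no loss of signal in the samples labelled Pak1-/-, where both arrays read slightly higher, and whether it lies inside the deleted part of the gene is not given in the sources used here. Directions below are between arrays as labelled. All 4 arrays shared 1 slide, with the Pak1-/- arrays next to each other, so position on the slide and genotype cannot be told apart. Median spot intensity was 322 to 331 on the 4 arrays, and 62.2% to 70.4% of probes were well above background.

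The cells carried an epithelial profile. The keratins Krt8 and Krt18 and the adhesion genes Epcam, Cldn7 and Cdh1 were well above background on all 4 arrays, while Krt19 was so on 3. Of 17 leukocyte genes with a probe, 8 were well above background on all 4 arrays and 5 on none (Laptm5, Lyz2, Klrd1, Cd3g and Ms4a1). Their summed level, as log2, was 15.76 to 16.26 in the samples labelled Pak1-/- and 15.53 to 15.67 in those labelled Pak1+/+. Most of that sum was the Itgam probe, without which it was 13.13 to 13.22 and 13.14 to 13.25. In limma 1 of them was higher (Mrc1) and 3 were lower (Coro1a, Ptprc and Adgre1) in the Pak1-/- group. Of the epithelial genes Krt8 (0.57), Krt18 (0.27) and Cdh1 (1.19, each as log2 difference) were called higher. Epcam (-0.23), Krt19 (-0.64) and Cldn7 (-0.005) read lower and did not pass. Of 4 fibroblast genes Col1a1 was higher by 1.12 (adjusted p = 0.0051), and 2 were at background on all arrays, while the summed log2 level of 3 endothelial genes was 9.71 to 9.88 in the samples labelled Pak1-/- and 9.78 to 9.86 in the others. The part of these genes in the results below was not tested.

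Interferon-inducible GTPases are a defence of single cells against microbes that live in vacuoles or in the cytosol. Interferon gamma acts through its receptor and JAK kinases on DNA elements called GAS sites, and type I interferons act largely through a complex that holds STAT2 and IRF9 and binds interferon-stimulated response elements (ISRE). The guanylate-binding proteins (Gbp) are large GTPases that coat pathogens and the membranes around them. The immunity-related GTPases (IRG) fall into effectors such as Iigp1, which load onto vacuoles, and the regulators Irgm1, Irgm2 and Igtp (Irgm3), which keep effectors off the membranes of the host cell. Gvin1 belongs to the very large inducible GTPases, whose role is less understood.

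The DNA just before the transcription starts of these genes is shown first, because it holds the letters that interferon-activated factors are known to read. RefSeq promoter entries (GRCm38.p6) were found for Gbp2, Gbp3, Irgm1, Igtp, Irgm2 and for Gbp7, the gene to which the accession of the brighter probe named Gbp6 belongs. Each line gives the 110 bases before the start, 5′ to 3′ on the strand of the gene. Capitals mark the ISRE core GAAANNGAAA on either strand (TTTCNNTTTC where it lies on the other strand) and the GAS core TTCNNNGAA, which reads the same on both strands.
Gbp2 (chr3:142620553-142620662, plus strand): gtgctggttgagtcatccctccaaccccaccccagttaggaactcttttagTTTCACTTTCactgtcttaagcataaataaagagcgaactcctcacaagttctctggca
Gbp3 (chr3:142559934-142560043, plus strand): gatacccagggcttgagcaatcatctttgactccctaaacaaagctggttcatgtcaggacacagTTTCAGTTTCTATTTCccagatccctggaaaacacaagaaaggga
Gbp7 (chr3:142530226-142530335, plus strand): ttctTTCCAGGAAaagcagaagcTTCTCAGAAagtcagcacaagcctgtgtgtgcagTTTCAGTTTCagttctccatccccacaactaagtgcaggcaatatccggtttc
Irgm1 (chr11:48871421-48871530, minus strand): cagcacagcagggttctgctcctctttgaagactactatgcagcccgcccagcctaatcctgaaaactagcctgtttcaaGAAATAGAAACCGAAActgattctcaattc
Igtp (chr11:58199446-58199555, plus strand): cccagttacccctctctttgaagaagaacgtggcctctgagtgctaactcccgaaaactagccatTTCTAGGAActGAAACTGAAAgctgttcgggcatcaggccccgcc
Irgm2 (chr11:58214867-58214976, plus strand): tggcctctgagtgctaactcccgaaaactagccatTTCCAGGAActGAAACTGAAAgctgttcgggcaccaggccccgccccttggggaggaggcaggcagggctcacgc

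All 6 of these promoters, those of 5 members and of Gbp7, held an ISRE core between 64 and 24 bases before the start, counting to its first base. Over all 32851 promoter entries of the same 300 bases (250 before and 50 after the start), 3.44% held an ISRE core and 8.3% a GAS core. In Gbp3 and in Irgm1 the core occurred at 2 overlapping positions, at 45 and 39 bases in Gbp3 and at 30 and 24 bases in Irgm1. A second annotated start of Gbp3 held neither motif. Gbp7 held 2 GAS cores, 106 and 87 bases before the start, besides its ISRE core at 53 bases. In the Gbp genes the ISRE core lay on the strand opposite to the gene, and in the IRG genes it lay on the strand of the gene.

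Igtp and Irgm2, which are neighbours on chromosome 11, shared a closer arrangement. In both, a GAS core was followed after 2 bases by an ISRE core (TTCNNNGAANNGAAANNGAAA), starting 45 bases before the start in Igtp and 75 in Irgm2. This composite was found in 5 of the 32851 promoter entries, 0.0152%, and all 5 belong to IRG genes of chromosome 11: Igtp, Irgm2, Tgtp1, Tgtp2 and Gm12185. The promoters of Igtp and Irgm2 shared an unbroken run of 61 bases, and those of Tgtp1 and Tgtp2 a run of 27. A match of letters is a description of the sequence and does not show that a factor binds there.

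**Figure D1:**
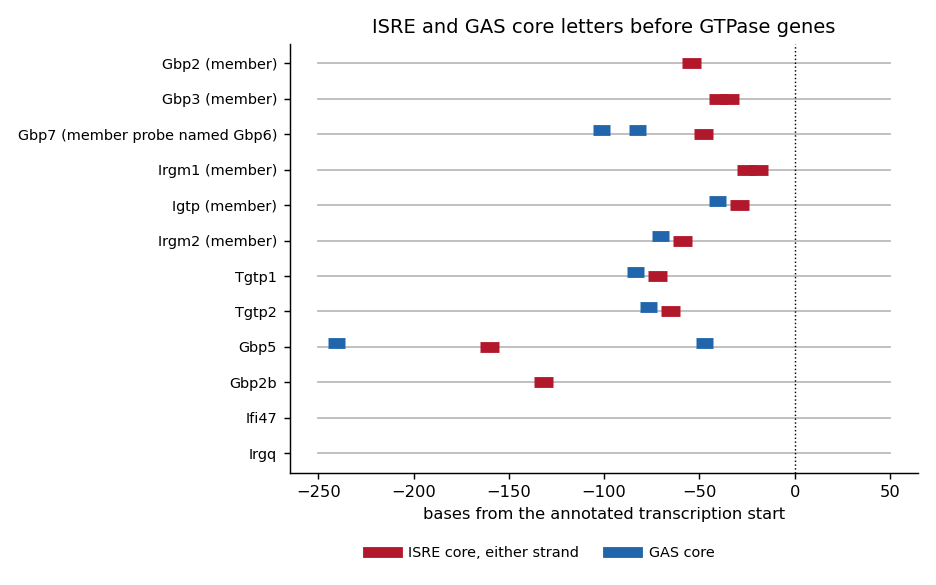
Positions of ISRE and GAS core letters from 250 bases before to 50 bases after the annotated start (0, dotted) of GTPase genes with a RefSeq promoter entry, 1 line a gene. In the 6 genes at the top (5 members and Gbp7) the ISRE core starts 64 to 24 bases before the start, and in Igtp, Irgm2, Tgtp1 and Tgtp2 a GAS core stands directly before it.

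Among the Gbp members, Gbp3 showed the largest difference of all 8. Its probe (mm9 chr3:142236032-142236091) read 16.60 and 16.41 in samples #1 and #2 labelled Pak1-/- and 9.83 and 10.09 in those labelled Pak1+/+, in normalized log2 intensity. The group means were 16.50 ± 0.136 and 9.96 ± 0.184 (SD, n = 2 each), a log2 difference of 6.54 or 93.2-fold. Before normalization the spot intensities were 85900 and 87000 against 904 and 1030, over a local background of 39 to 50.

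Gbp2 (mm9 chr3:142300719-142300778) read 15.62 and 15.52 against 11.04 and 11.30, with means of 15.57 ± 0.0759 and 11.17 ± 0.18. The log2 difference was 4.40, or 21.1-fold. The arrays of each group lay close together for both genes, and the lowest Pak1-/- array exceeded the highest Pak1+/+ array by 6.32 for Gbp3 and by 4.22 for Gbp2 on the log2 scale.

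The name Gbp6 covered 2 probes with very different readings. The brighter one (mm9 chr3:142209379-142209438) read 12.33 and 12.25 against 8.42 and 8.42, a log2 difference of 3.87 or 14.6-fold, and its accession is that of Gbp7 in RefSeq. The other (mm9 chr3:142213888-142213947) read 6.88 and 6.80 against 6.19 and 6.22 and was well above background on 1 array only, so it was not tested, and its accession was not matched in RefSeq. The gene that RefSeq now calls Gbp6 was named Mpa2l on the array and is described with the other GTPases below. The value given here under the name Gbp6 is that of the brighter probe, and by its accession belongs to Gbp7.

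The regulators of the IRG family were all higher in the samples labelled Pak1-/-, Irgm1 by less than Irgm2 and Igtp. Irgm1, whose loss in mice is known to cause defects in host defence, had 2 probes, at mm9 chr11:48679069-48679128 and chr11:48679632-48679691. The brighter one read 14.98 and 14.96 in the samples labelled Pak1-/- and 11.53 and 11.68 in those labelled Pak1+/+, a log2 difference of 3.37 or 10.3-fold. The second probe gave 13.52 and 13.58 against 10.34 and 10.41, a log2 difference of 3.18 or 9.03-fold, so both probes placed Irgm1 near the same size of difference.

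Irgm2 (mm9 chr11:58036093-58036152) read 14.01 and 14.06 against 9.95 and 10.28, with means of 14.04 ± 0.0367 and 10.12 ± 0.233. The log2 difference was 3.92, or 15.1-fold. By the brightest probe of each gene, Irgm2 was the member whose Pak1+/+ arrays lay farthest apart, by 0.33.

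Igtp (mm9 chr11:58020927-58020986) was measured by 1 probe spotted 10 times on each array, and so shows the technical error of a spot. The 10 spots ranged from 15.02 to 15.31 on array #1 and from 14.95 to 15.25 on array #2 of the Pak1-/- group, and from 11.13 to 11.31 and from 11.36 to 11.55 on the Pak1+/+ arrays, with SDs between spots of 0.0637 to 0.0893. The array averages were 15.19 and 15.19 against 11.23 and 11.47, a log2 difference of 3.84 or 14.3-fold. The 2 Pak1+/+ arrays differed by 0.24, and the ranges of their spots did not overlap.

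Iigp1, the effector of the IRG family among the members, had 2 probes on chromosome 18 that disagreed in size. The brighter probe read 12.40 and 12.14 against 8.84 and 8.86, a log2 difference of 3.42 or 10.7-fold. The second probe read 11.97 and 11.75 against 6.68 and 6.29 and was not well above background on either Pak1+/+ array, so only a bound can be given there. Taken against the lowest signal well above background on each array, the second probe was at least 31.9-fold higher in the samples labelled Pak1-/-. Its own measured means were 11.86 and 6.49. Both probes had the same direction.

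Gvin1 stood apart from the other members. Its brighter probe (mm9 chr7:113300340-113300399) read 14.82 and 14.55 in the samples labelled Pak1-/- and 14.21 and 14.38 in those labelled Pak1+/+, with means of 14.68 ± 0.19 and 14.29 ± 0.117. The log2 difference was 0.39, or 1.31-fold, and the nearest arrays of the groups were 0.175 apart. The second probe (mm9 chr7:113302432-113302491) read 14.76 and 14.40 against 13.65 and 14.09, a log2 difference of 0.71 or 1.64-fold. For this probe the Pak1+/+ arrays were 0.45 apart, more than the 0.31 that separated the groups. Leaving out sample #1 labelled Pak1-/- brought the difference of the brighter Gvin1 probe to 0.26, and leaving out #2 of that group brought it to 0.53.

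**Figure D2:**
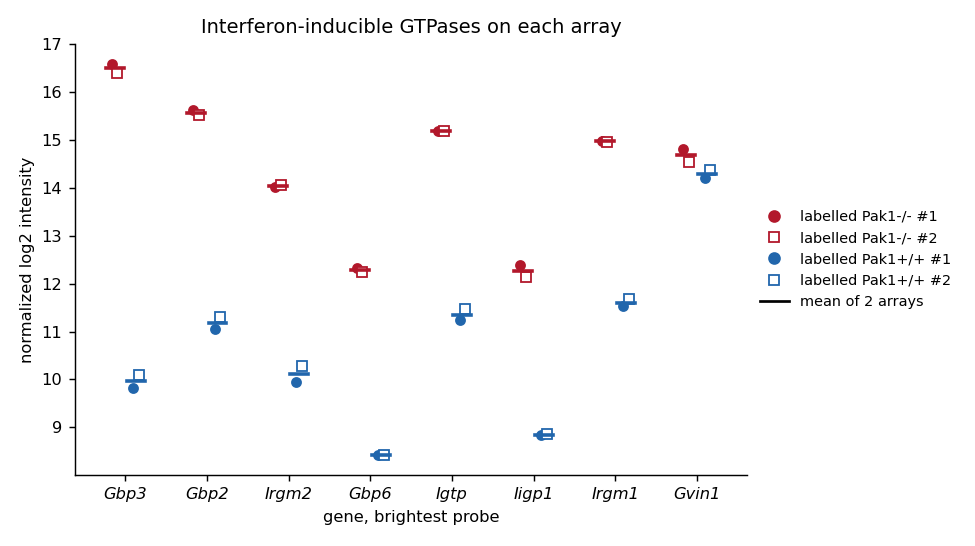
Normalized log2 intensity of the 8 members (brightest probe each) on the 4 arrays, filled circles for sample #1 and open squares for sample #2, with a line at the mean of each group of 2. The groups are far apart for 7 genes and close together for Gvin1, at 14.68 and 14.29. The genes are ordered by their difference, from 6.54 in Gbp3 to 0.39 in Gvin1, and heights are not comparable between genes.

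Across the 8 members the median log2 difference was 3.85 and the range 0.39 to 6.54, whereas over all 22014 genes tested the median was -0.05 and the median absolute difference 0.32. Both Pak1-/- arrays lay above both Pak1+/+ arrays for 8 of 8 members, as they did for 34.2% of all genes with 4 values. A difference of at least 8-fold was seen for 7 of the 8, against 0.968% of all genes tested. Since the members were chosen on this same difference, nothing is read from these counts. The smallest two-sided p that an exact permutation test of 2 arrays against 2 can give is 0.333.

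By their brightest probes, the members fell into 5 sets when every Pak1-/- array was set against every Pak1+/+ array. Gbp3 spanned 6.32 to 6.77 and Gbp2 4.22 to 4.58. Irgm2 (3.73 to 4.11), Igtp (3.71 to 3.96) and Gbp6 (3.83 to 3.91) overlapped one another, and so did Iigp1 (3.28 to 3.56) and Irgm1 (3.28 to 3.45), which lay below them. Gvin1 spanned 0.175 to 0.61. Neighbours within the overlapping sets did not differ beyond the spread between arrays. The order depends on the probe, since the second Iigp1 probe, at least 31.9-fold higher, would place Iigp1 above Gbp2, Irgm2, Igtp and Gbp6.

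By their brightest probes, most members differed in the same direction between the 2 arrays of a group, by small amounts. With 2 arrays a group, this cannot show that the members vary together. Of the 2 arrays labelled Pak1+/+, #2 was the higher for 7 of 8 members, with a median difference of 0.2 and a largest one of 0.33 in Irgm2. Over all genes tested the median absolute difference between these arrays was 0.0825, and 51.2% of genes were higher on #1. The exception was Gbp6, at 8.42 on both arrays. Under the other scalings of the arrays, 7 or 8 of the 8 members were higher on array #2. Of the 18 other interferon-inducible GTPases tested, 8 were higher on #2 and 10 on #1. In the Pak1-/- group, #1 was higher for 7 of 8 members by a median of 0.0922, close to the 0.109 of the median gene in absolute size, and for 5 to 7 of them under other scalings. There 14 of the 18 other GTPases were also higher on #1, by a median of 0.164 over the 18.

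The wider family was next examined, in genes that are not members. A list of 32 other interferon-inducible GTPases, drawn up with earlier results of these data known, had a probe for 24 and a tested probe for 18. It holds 1 tested gene of the IRG family that is not known as interferon-inducible, Irgq. Of these 18 genes, 13 were higher in the samples labelled Pak1-/- at an adjusted p under 0.05 in limma, none was lower (also none at an unadjusted p under 0.05), and 5 did not pass. Of the 13, 3 (Gm4951, F830016B08Rik and Mx1) were at background on both Pak1+/+ arrays and entered the test through the Pak1-/- arrays alone. Of the 14 genes well above background on all 4 arrays, 10 were higher, and without Irgq, a choice made after seeing the data, 12 of 17 were. Of all genes tested, 22.8% were called higher and 28.2% lower. The median log2 difference of the 18 genes was 0.98, against -0.05 over all genes. Between 9 and 14 of them were called higher under the alternatives tried.

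Among the IRG effectors, Ifi47 (Irgd) read 14.34 and 14.23 against 8.56 and 8.82, a log2 difference of 5.60 ± 0.114 (SE) with an adjusted p of 5.8e-05 in limma. Tgtp2, another effector, read 13.57 and 13.16 against 7.72 and 7.83 on its brighter probe, a difference of 5.59 ± 0.156 with an adjusted p of 9.7e-05. Its second probe, not well above background on either Pak1+/+ array, read 8.17 and 7.30 against 6.75 and 6.41 and was at least 1.79-fold higher, with an adjusted p of 0.035. Tgtp1, a close paralog of Tgtp2 whose value is uncertain because probes may not separate the 2 transcripts, rose by 0.39 on the log2 scale (adjusted p = 0.013), and lost its call when sample #1 labelled Pak1-/- (0.36) or #2 labelled Pak1+/+ (0.34) was left out.

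Gm4951 and F830016B08Rik lie beside Iigp1 and were not well above background on the Pak1+/+ arrays. Gm4951 read 12.51 and 12.05 against 6.59 and 6.58 and was at least 42.6-fold higher, with an adjusted p of 0.00011 in limma. F830016B08Rik read 9.21 and 8.51 against 6.16 and 6.55 and was at least 3.97-fold higher, with an adjusted p of 0.0023. Gm12250 (Irgb10), an effector that acts on bacterial membranes, rose by 1.10 (adjusted p = 0.00071). Irgq, a member of the family not known as interferon-inducible, rose by 0.86 (adjusted p = 0.0035). Gm5431 and 9930111J21Rik1 read 0.24 and 0.12 higher and did not pass, at adjusted p-values of 0.067 and 0.58. Gm5431 did pass with the processed signal (0.32), with percentile scaling (0.25) and with cyclic loess (0.28). On no array did Irgc1, 9930111J21Rik2, Gm12185, Gm8995 or Iigp1b rise well above background.

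The Gbp family was uneven. RefSeq's Gbp6, carried as Mpa2l, read 10.66 and 10.69 against 8.44 and 8.35 on its brighter probe, a log2 difference of 2.28 ± 0.0722 (SE) with an adjusted p of 0.00012 in limma, and its second probe gave 2.08. Gbp9 rose by 1.18 (adjusted p = 0.002) and Gbp10 by 0.53 (adjusted p = 0.0061). Gbp4 (0.24), Gbp5 (0.26) and Gbp8 (-0.26) did not pass, at adjusted p-values of 0.14, 0.12 and 0.25. Both probes of Gbp2b, carried as Gbp1, stayed at background on all 4 arrays. Gbp5, Gbp7, Gbp3, Gbp2b and Gbp2 sit in 1 cluster on chromosome 3. Within this cluster the differences of the genes above background, so without Gbp2b, ran from 0.26 (Gbp5) to 6.54 (Gbp3). Gbp4 passed (0.37) when sample #2 labelled Pak1-/- was left out.

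The other inducible families were represented by 3 tested genes. Mx2, an antiviral dynamin-like GTPase, read 14.85 and 14.64 against 7.47 and 7.88, a log2 difference of 7.07 ± 0.167 (SE) with an adjusted p of 7.1e-05 in limma. Mx1 was not well above background on either Pak1+/+ array, read 9.91 and 9.84 against 6.83 and 6.61, and was at least 7.69-fold higher with an adjusted p of 0.00012. Gm1966, a very large GTPase like Gvin1, read 13.60 and 13.23 against 12.71 and 12.96, a difference of 0.58 with an adjusted p of 0.037. This call was lost when sample #1 labelled Pak1-/- (0.40) or sample #1 labelled Pak1+/+ (0.45) was left out, and also with no offset, with the processed signal, with no filter on dim probes and with the replicate number as a block (0.54 to 0.58). The Gm1966 values above are those of its brighter probe. Its second probe read 12.30 and 12.08 against 11.64 and 11.76, a difference of 0.49 with an adjusted p of 0.018 in limma. Both very large GTPases thus showed small differences beside those of most IRG and Mx genes.

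**Figure D3:**
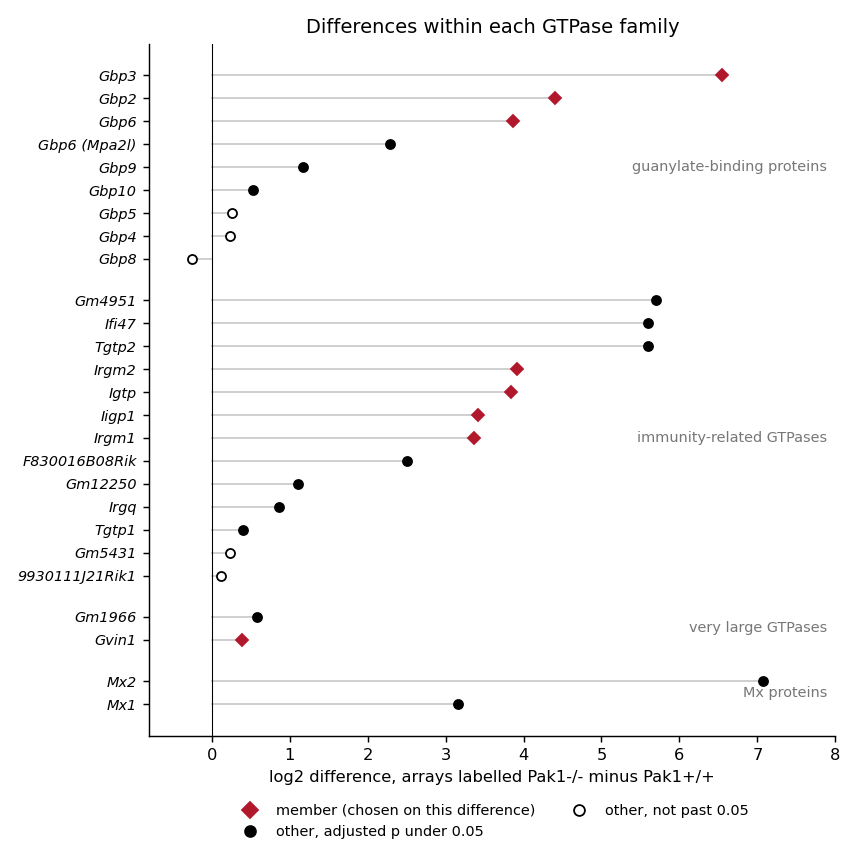
Log2 difference of every tested interferon-inducible GTPase by family, members as red diamonds, other genes as filled circles where the adjusted p in limma was under 0.05 and as open circles otherwise. The non-members Ifi47, Tgtp2 and Mx2 stood at 5.59 to 7.07, the points of Gm4951, F830016B08Rik and Mx1 rest on Pak1+/+ arrays at background, and Gbp4, Gbp5 and Gbp8 lay within 0.26 of 0.

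The promoters of these other genes were read in the same way, to set them beside those of the members. Tgtp2, with a large difference, and Gbp5, with none past the threshold, are shown because both hold the letters found in the members. Tgtp2 is given over 110 bases and Gbp5 over 180 bases before the start (GRCm38.p6), with ISRE and GAS cores in capitals.
Tgtp2 (chr11:49064213-49064322, minus strand): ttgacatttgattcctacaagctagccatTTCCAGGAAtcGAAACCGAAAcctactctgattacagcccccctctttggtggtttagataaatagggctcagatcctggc
Gbp5 (chr3:142496754-142496933, plus strand): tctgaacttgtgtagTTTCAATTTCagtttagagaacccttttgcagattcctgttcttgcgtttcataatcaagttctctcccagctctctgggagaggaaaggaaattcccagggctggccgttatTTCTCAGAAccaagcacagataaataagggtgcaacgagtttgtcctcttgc

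Gbp5 held an ISRE core 165 bases and GAS cores 245 and 52 bases before the start, and its log2 difference was 0.26. Ifi47, at 5.60, and Irgq, at 0.86, held neither motif in this window. Tgtp1 and Tgtp2 both held the composite of GAS and ISRE cores, at differences of 0.39 and 5.59, where probes may not separate the 2 transcripts. Over all tested genes with a promoter entry, members left out, 33.2% of the 455 with an ISRE core were called higher and 22.9% lower, against 25.9% and 28.5% of those without. At least 8-fold higher were 5.05% of the genes with an ISRE core and 0.957% of those without. For the GAS core the shares called higher were 26.1% with and 26.2% without. These shares were not tested.

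The genes around the members were examined through the nearest tested genes, 5 on each side of each member, that belong to no GTPase list, in the order of the RefSeq annotation. Of 50 such neighbours 15 were higher and 13 lower in the samples labelled Pak1-/-, against 22.8% and 28.2% of all genes, and their median difference was -0.06. The files place the probes of 2 of them on other chromosomes (Gm2451 and Gm12251, neither past the threshold), and without these, a choice made after seeing the data, 15 of 48 were higher and 13 lower. Among those that rose were Trim7, next to Irgm1, by 1.53 (adjusted p = 0.00086 in limma), Pdlim5, on the side of Gbp5, by 1.09, and Unc5c beside it, which was not well above background on the Pak1+/+ arrays and was at least 2.28-fold higher. Among those that fell were Timd2 (-1.49), Slc12a2 (-0.87) and Havcr1, which was at background on both Pak1-/- arrays and was at least 2.09-fold lower.

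Within the clusters the pattern was interrupted. By their brightest probes, between Irgm1 (3.37) and Tgtp2 (5.59) on chromosome 11 lay Gm5431, 9930111J21Rik1 and Tgtp1, at 0.24, 0.12 and 0.39. The Tgtp1 value is uncertain, as said above. A second Gm5431 probe, too dim to be tested, gave 0.72, and the second Tgtp2 probe was at least 1.79-fold higher. Beside Igtp (3.84) and Irgm2 (3.92), Gm12250 stood at 1.10 and Zfp692 at -0.51. Around Gvin1 no gene differed by more than 0.78 in either direction.

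**Figure D4:**
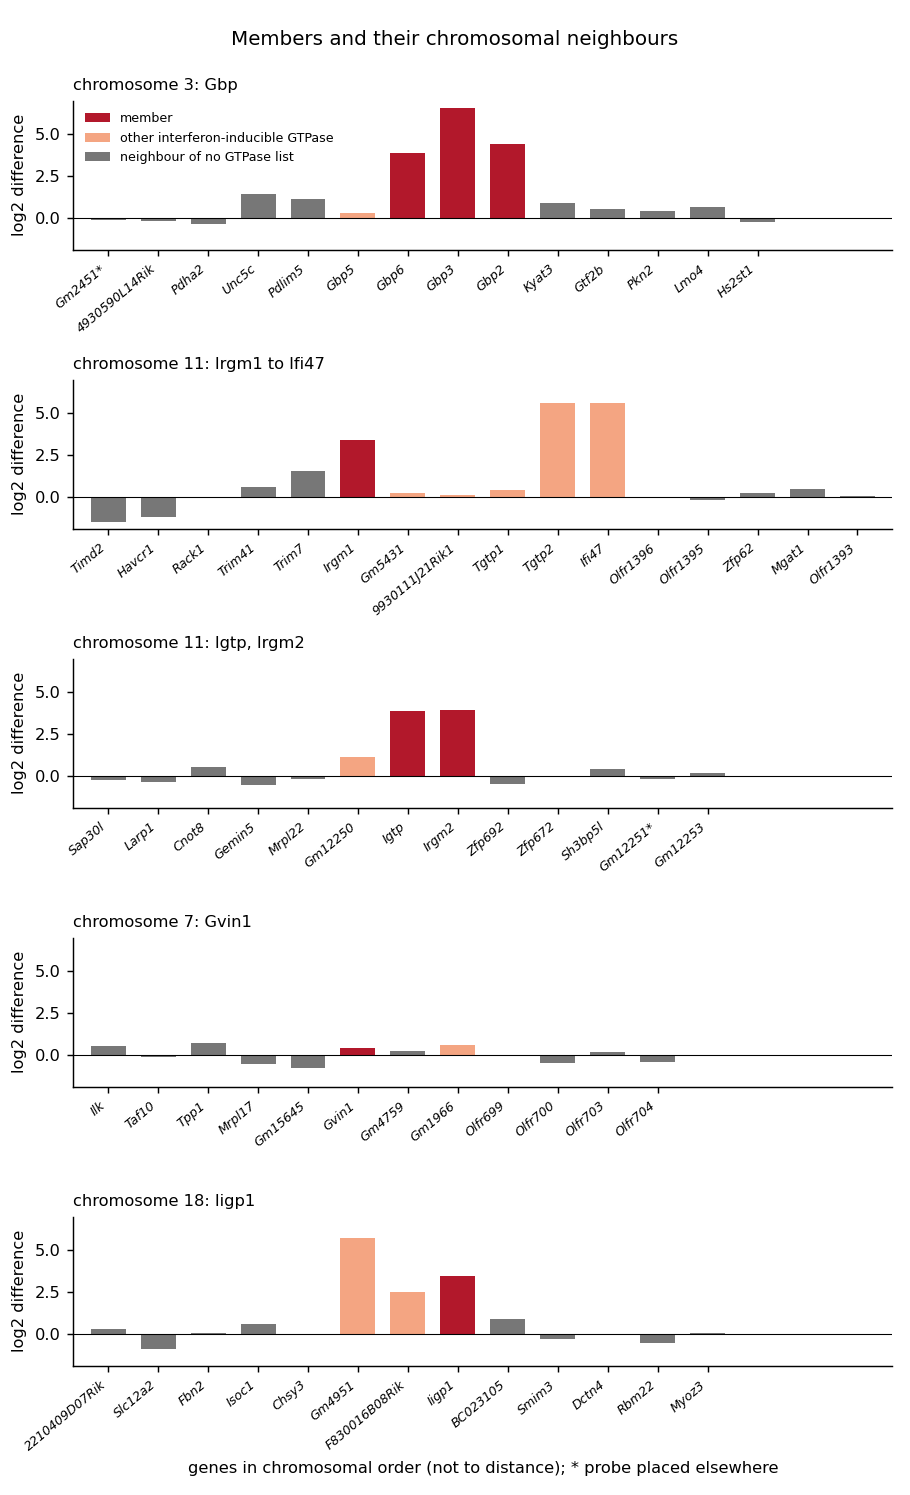
Log2 difference of the members (red), other interferon-inducible GTPases (orange) and neighbouring genes of no GTPase list (grey) in chromosomal order, 1 panel a locus; spacing does not show distance, and a star marks the 2 neighbours whose probe the files place on another chromosome. Bars of 3.37 to 6.54 for the 7 large members stand beside neighbours of -1.49 to 1.53, and the Gvin1 locus holds no large bar. The bars of Unc5c, Havcr1, Gm4951 and F830016B08Rik rest on a group at background.

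The signalling genes upstream of the GTPases were examined to see which parts of the interferon pathway differed in the same cells. Of 23 tested genes of 24 on the list, 14 were higher and 3 lower in the samples labelled Pak1-/-, against 22.8% and 28.2% of all genes tested, with a median difference of 0.55. Interferon gamma itself (Ifng) was at background on all 4 arrays. Ifnb1, which encodes interferon beta, read 7.958 and 7.997 against 7.935 and 6.665, and its difference of 0.68 did not pass, at an adjusted p of 0.24 in limma. Sample #2 labelled Pak1+/+ was not well above background for this probe. Without sample #1 of that group the difference was 1.31, and over all alternatives it ran from 0.04 to 1.59.

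Of the receptors, the interferon gamma receptor subunit Ifngr2 rose by 0.89 (adjusted p = 0.0011) and the type I receptor subunit Ifnar1 by 0.86, while Ifngr1, at 14.10 and 13.88 against 13.76 and 13.87, differed by 0.18 and did not pass (adjusted p = 0.21), and neither did the type I receptor subunit Ifnar2, at 0.05 (adjusted p = 0.64). The kinase Jak1 rose by 1.35, while Jak2 read -0.21 and did not pass (adjusted p = 0.056) except when the test was kept to probes well above background on all 4 arrays. Of the transcription factors, Stat2 read 13.73 and 13.42 against 10.72 and 10.90, a difference of 2.77 ± 0.134 (SE) with an adjusted p of 3e-04 in limma. Irf9, its partner at the ISRE, rose by 2.82 (adjusted p = 0.00024). Irf7, which amplifies type I interferon responses, rose by 6.09 (adjusted p = 4.2e-05), and Irf1, a factor that Gbp and IRG genes respond to, by 1.18 (adjusted p = 0.0015). Irf2 (-0.18) and Irf3 (-0.21) did not pass, at adjusted p-values of 0.19 and 0.12.

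The restraints on the pathway went different ways. Usp18, which shuts down type I receptor signalling and is itself induced by interferon, read 15.68 and 15.68 against 8.30 and 8.80, a difference of 7.13 with an adjusted p of 8.1e-05 in limma. Socs1, an inhibitor of JAK kinases, rose by 1.35 (adjusted p = 0.0017). Its relative Socs3 fell by 1.60 on the log2 scale (-1.60, adjusted p = 0.00037) and the phosphatase Ptpn2 by 0.56. Irf8, a factor best known in myeloid cells, read 6.44 and 6.58 in the samples labelled Pak1-/-, not well above background, and 12.10 and 11.85 in those labelled Pak1+/+, and was at least 40.8-fold lower with an adjusted p of 6e-05. Irf8 thus ran opposite to the members.

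The proteins that work with these GTPases at vacuoles were mixed. Of 20 tested genes of ATG8 conjugation, vacuole marking and their partners, 5 were higher and 5 lower and the median difference was -0.01, against 22.8% and 28.2% of all genes called. Trim21, an antibody receptor and ubiquitin ligase, rose by 1.83 (adjusted p = 0.00033 in limma), Lgals8, a galectin that marks damaged vacuoles, by 1.51, and Map1lc3b, an ATG8 protein, by 0.75. Lgals3, another galectin, fell by 1.50 on the log2 scale (-1.50, adjusted p = 0.0016), the lipid kinase gene Pik3c3 by 0.46 and Atg10 by 0.42. Atg5, Atg12 and Atg16l1, which form the conjugating complex, differed by -0.39, -0.24 and -0.05. Atg5 (adjusted p = 0.019 in limma) and Atg12 (adjusted p = 0.039) passed the threshold, and Atg16l1 (adjusted p = 0.59) did not. Without sample #1 labelled Pak1-/-, sample #1 labelled Pak1+/+ or sample #2 labelled Pak1+/+, the number called lower was 3, 3 and 2, and Atg10 lost its call without either Pak1+/+ sample (-0.40 and -0.44).

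Of the 13 listed inflammasome and cell lysis genes with a probe, 10 were tested. Of these, 7 were higher and none was lower (also none at an unadjusted p under 0.05), against 22.8% and 28.2% of all genes. Zbp1, a sensor of nucleic acid in Z form, read 14.34 and 14.14 against 10.36 and 10.76, a difference of 3.68 with an adjusted p of 0.00023 in limma. Casp4, the caspase that binds bacterial lipopolysaccharide, rose by 1.43 and Naip2, a receptor for bacterial secretion proteins, by 1.26. Il1b, Nlrc4 and Aim2 were not tested, since none of them was well above background on 2 arrays.

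GTPases of the dynamin family that are not induced by interferon were taken as a comparison of the same protein architecture. Of 15 tested, 6 were higher and 4 lower, against 22.8% and 28.2% of all genes, with a median of 0.21. The rises were led by Atl1 (1.32) and followed by Dnm3 (0.90) and Ehd3 (0.83), and the falls by Atl2 (-1.33), Ehd1 (-0.78) and Dnm1 (-0.57). The whole range was -1.33 to 1.32.

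**Figure D5:**
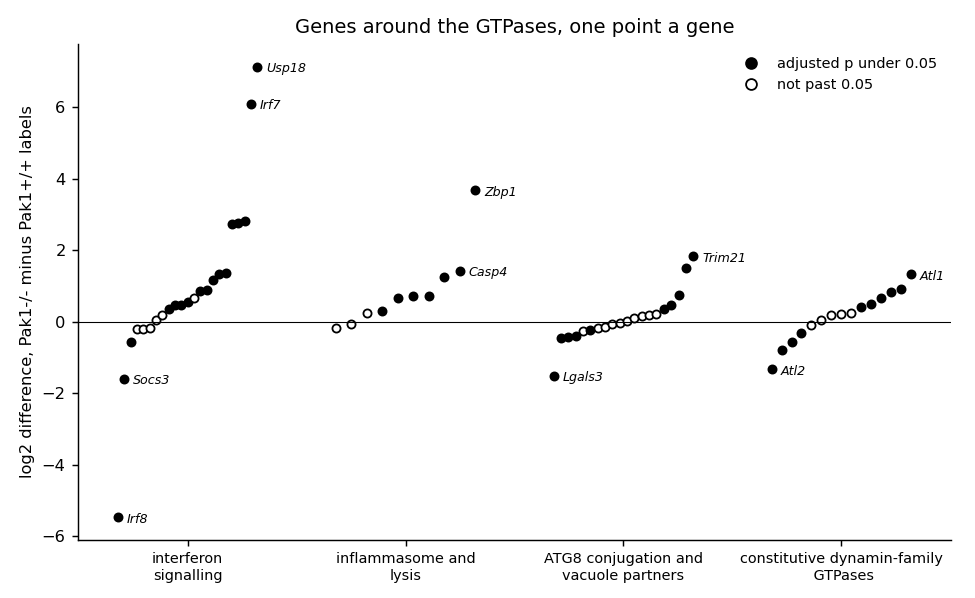
Log2 difference of each tested gene in 4 lists around the GTPases, filled where the adjusted p in limma was under 0.05 and open otherwise. In the signalling list Usp18 stands highest, at 7.13, and Irf8, at background on the Pak1-/- arrays and at least 40.8-fold lower there, stands lowest, whereas the vacuole partners and the constitutive dynamin family stay between -1.50 and 1.83.

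Finally, the genes whose pattern over the 4 arrays was most like the mean pattern of the members were named, by the Euclidean distance between centred log2 values among 19135 genes well above background on all 4 arrays. The 5 nearest were Zbp1 (distance 0.172), Lrrc75b (0.175), Ifih1 (0.189), Moxd1 (0.19) and a transcript on chromosome 16 that the files give only by an identifier (0.204). Ifih1, which encodes a sensor of double-stranded RNA, read 14.20 and 14.09 against 10.12 and 10.36. Moxd1, which encodes a monooxygenase, read 11.96 and 11.85 against 8.05 and 8.04. Of the members themselves, Igtp lay nearest to their mean pattern, at 0.145, and Gvin1 (3.33) and Gbp3 (2.82) lay farthest from it. The distances rest on 4 arrays and on the difference by which the members were chosen, so they are a description.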

How the data were processed

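RNA of 4 samples was labelled with Cy3 and hybridized to 1-colour Agilent arrays, and images were read by the authors with Agilent Feature Extraction 9.5 (version from the submitters' processing notes). The deposited scanner files hold the intensity of each spot on a linear scale. The deposited table of log2 values was made by the authors with normexp background correction and quantile normalization, and was used only as an alternative. Probe coordinates are those of the files (mm9).

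Here, spot means were background corrected (normexp, offset 50) and quantile normalized in limma 3.58.1 (R 4.3.3). Spots marked as outliers were dropped and the spots of a probe averaged. The 27229 of 39429 probes that the scanner software marked well above background on 2 or more arrays were tested with lmFit and eBayes, two-sided, with Benjamini-Hochberg adjustment over all probes, and 14132 were called (6349 higher, 7783 lower). The code was tested on simulated data. The number of arrays limits the precision. Genes were named by RefSeq accession where possible, else by the name in the file, and the brightest tested probe stands for a gene. A fold called "at least" sets the bright group's mean against the dim group's mean after raising each of its arrays to the lowest signal there that was well above background.

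The members and all gene lists were chosen with earlier results of these data known. 3 genes were added to the list of other GTPases, and 1 name corrected, after the probe names were read. Named were every member and every other interferon-inducible GTPase with a probe, of each further list the 3 largest rises and falls past the threshold, further signalling genes and the 5 nearest patterns; 1 gene under that rule is not reported here. Other genes named were chosen after their values were seen. Alternatives were other background offsets, scalings, filters, thresholds, probe rules, the deposited table, leaving out each sample, and the replicate number as a block. Leaving out Itgam, Irgq, neighbours with a probe on another chromosome, or genes not well above background on all arrays was chosen after seeing the data.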

Additional observations from a re-analysis of the deposited data

How the results depend on the processing

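The median log2 difference of the 8 members stayed between 3.74 and 3.93 in all 14 alternatives, and no member changed direction. With the mean over all probes Irgm1 came to 3.27 and Gvin1 to 0.55, and no such mean is given for Gbp6 and Iigp1, each of which has a probe at background in a group. Counting only an adjusted p under 0.01 left 8878 probes called, 3 vacuole partners higher and 2 lower, and 8 neighbours lower. An adjusted p under 0.05 together with a difference of at least 2-fold left 3413 probes, 8 signalling genes higher, 2 partners higher and 1 lower, 3 inflammasome genes higher, 1 constitutive dynamin-family gene higher and 1 lower, and 3 neighbours higher and 2 lower. Leaving out each sample in turn gave 2 to 5 partners lower. The difference of 9930111J21Rik1, which did not pass the test, ran from -0.0774 to 0.32 and turned negative without sample #1 labelled Pak1-/- (-0.0774) and without #2 labelled Pak1+/+ (-0.008093). The log2 difference of Ifnar2, which did not pass either, was -0.02156 with the processed signal and ran from -0.01074 (without #1 labelled Pak1+/+) to 0.1089 when samples were left out. The sample numbers do not pair the samples (r = -0.028 across probes between the groups' differences of #1 and #2). With the replicate number as a block 13211 probes were called, the median of the members stayed at 3.85, and the call of Gm1966 was lost (0.58). Cyclic loess moved the share of called genes that were higher from 44.7% to 52.2%. With 2 arrays a group, small differences such as that of Gvin1 cannot be placed precisely, and probes near background give bounds only.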
